A study of Mus musculus with 6 samples.

Results

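The EGF receptor family and its ligands were examined across the 6 arrays of a study of the injured mouse pituitary. The 10 genes were the receptors Egfr, Erbb2, Erbb3 and Erbb4 and the ligands Hbegf, Tgfa, Egf, Areg, Ereg and Btc. They were found by their gene name in the scanner files and gave 13 array features among 30119 genes or unnamed transcripts. All mice were female and carried iDTR, an inducible diphtheria toxin receptor. Control mice carried -/iDTR, without Cre, and GHCre/iDTR mice also carried a growth hormone Cre driver, so that the receptor is switched on only in cells of the growth hormone lineage. Both genotypes received diphtheria toxin, 4 ng for each g of body weight in each of 2 daily doses. There were 2 control and 2 GHCre arrays after 3 days of toxin, and 1 of each after 10 days. No array came from mice without toxin or without iDTR. The ages of the mice, and whether a sample pooled several glands, were not given in the sources used here. P-values therefore measure only the spread between these samples.

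The RNA came from the side population of the trypsin-dissociated anterior pituitary. These are cells that pump out Hoechst dye, sorted here without those of the highest Sca1 level, a fraction in which stem cells gather. A sort typically yielded 25000 to 50000 cells, from which 1 ng of RNA was amplified for the array. Sox2, a defining marker of pituitary stem cells, was above background on no array. Prl, the prolactin transcript of another cell type, had a log2 level of 10.35 or more on every array. Gh, the growth hormone transcript, had levels of 5.69 and 3.65 in 3 day controls and of 5.46 and 2.20 in 3 day GHCre arrays, and of 7.86 (control) and 2.21 (GHCre) after 10 days. Gh thus did not separate the genotypes after 3 days. Where a transcript is lower in such sorted cells, fewer cells of a type and less RNA per cell cannot be told apart.

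ERBB receptors are tyrosine kinases that sit in the cell membrane and pair with one another when a ligand binds. Egfr binds Egf, Tgfa and Areg. Hbegf, Btc and Ereg bind both Egfr and Erbb4. Erbb2 has no known ligand of its own and serves as the preferred partner of the others, while Erbb3 has little kinase activity and signals through its partners. The ligands are made as membrane proteins and are cut free by proteases, chiefly Adam17 and Adam10. In the pituitary, EGF is known as a growth factor for hormone cells and for stem cell cultures. HBEGF has a further role here, because the human and simian protein is the receptor that lets diphtheria toxin into a cell. The mouse protein binds the toxin poorly, and iDTR supplies the primate form.

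A feature is a 60 base probe on a 1-colour Agilent array. Its level is the log2 of the scanner's processed signal minus the log2 of the array's 75th percentile, so a level of 0 is a signal at that percentile. The percentile ran from 186.15 to 298.51 signal units, and from 53.8% to 65.7% of probes were well above background. Replicate 1 of the 3 day controls was the lowest in both. The dimmest level that counted as above background lay between -4.64 and -3.59, depending on the array. Levels can be compared between arrays for 1 feature, not between features.

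The sequences and positions on the array show where each feature lies, and the transcript named for a feature is that of its annotation. Those below come from the scanner files, with positions in the mm9 build, and are printed for the features whose identity matters most to the results that follow. A run of at most 10 bases was shared between any pair of the 13 features. Egfr has 3 features. The first, called the upstream feature here, is annotated to transcript variant 2 (chr11:16783556-16783615, plus strand). Whether other Egfr transcripts also hold its sequence was not determined.

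Egfr upstream: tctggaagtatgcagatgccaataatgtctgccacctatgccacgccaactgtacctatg

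The next Egfr feature starts 3616 bases further on (chr11:16787172-16787231, plus strand) and holds the end of the variant 2 reading frame. Variant 2 is a short form that lacks the membrane and kinase parts of the receptor. Capitals mark the stop codon, before which the frame is open over the whole probe.

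Egfr variant 2: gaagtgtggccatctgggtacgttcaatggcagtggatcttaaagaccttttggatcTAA

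The third Egfr feature, annotated to transcript variant 1, which encodes the full-length receptor, starts 30259 bases after the upstream feature (chr11:16813815-16813874, plus strand). The Erbb3 feature (chr10:128006424-128006483, minus strand) also ends on an in-frame stop codon, in capitals.

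Erbb3: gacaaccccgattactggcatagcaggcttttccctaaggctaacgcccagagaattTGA

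For the ligands, the Egf feature (chr3:129380826-129380885, minus strand) is shown because it was above background on all 6 arrays and did not overlap between the genotypes after 3 days. The Areg feature (chr5:91570090-91570149, plus strand) is shown because a single array gave it signal.

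Egf: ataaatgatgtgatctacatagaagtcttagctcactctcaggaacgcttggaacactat
Areg: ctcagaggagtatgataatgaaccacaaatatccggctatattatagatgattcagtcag

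Of the 10 genes, 7 had their brightest feature above background on at least 2 arrays and entered the test across 20920 genes or unnamed transcripts. These were Egfr, Erbb2, Erbb3, Erbb4, Hbegf, Tgfa and Egf. Areg was above background on 1 array, and Ereg and Btc on 0. Of the 7 genes tested, 0 passed an adjusted p of 0.05 with limma in any comparison, where 0% of all genes did so in each of the 5 comparisons. Values below are therefore described, and none is a call. With 2 arrays against 2, an exact permutation test of 1 feature cannot go below a two-sided p of 0.333.

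**Figure D1:**
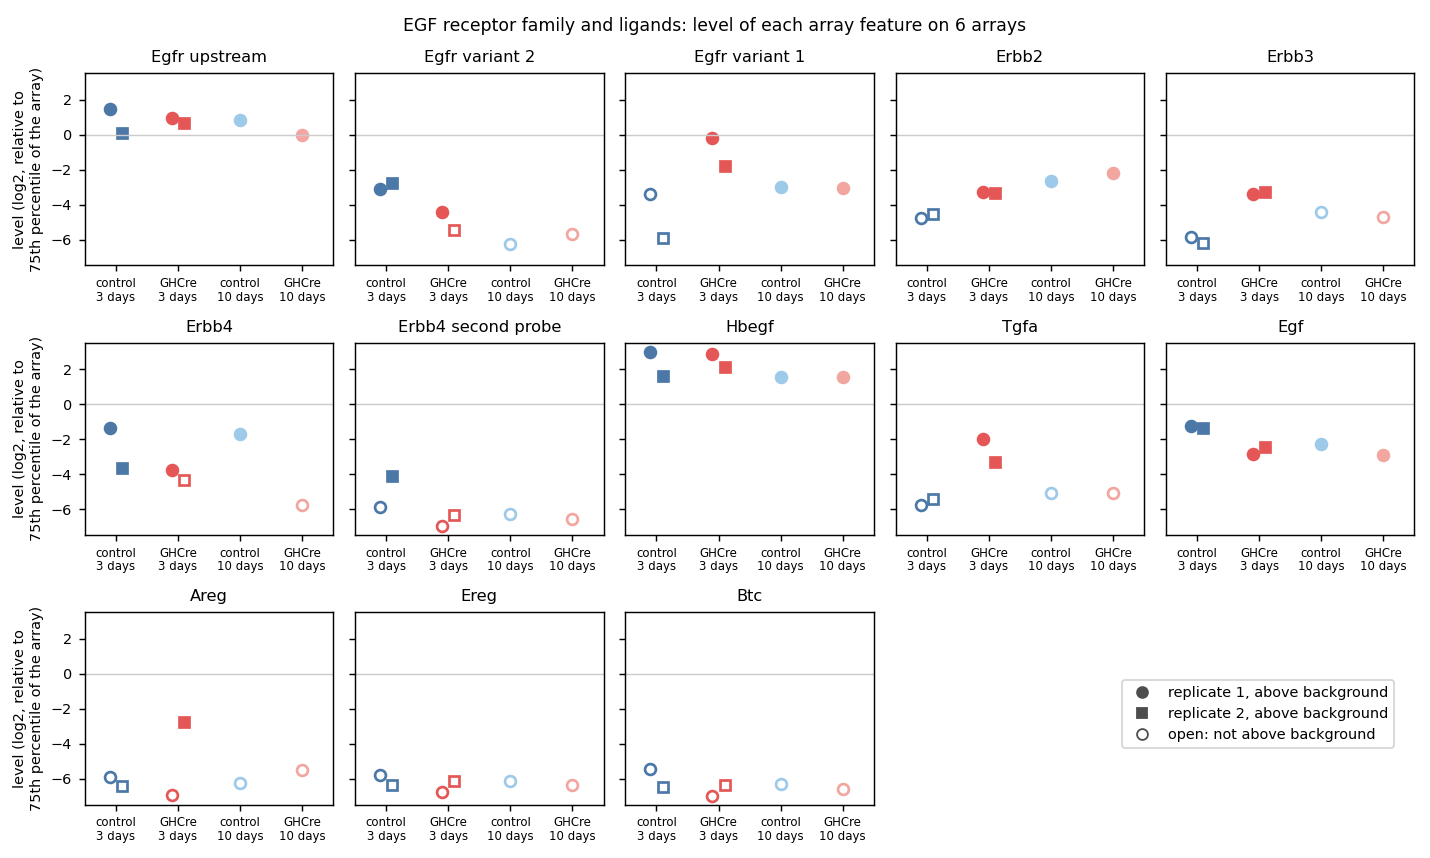
Level of each of the 13 features (log2, relative to the 75th percentile of the array) in the 4 groups, with 1 point for each array; open points were not above background. Hbegf and the upstream Egfr feature are filled on all 6 arrays, whereas Erbb3 and Tgfa are filled on the 3 day GHCre arrays alone.

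After 3 days of toxin, Erbb2, Erbb3 and Tgfa were detected in both GHCre arrays and in neither control array, while Egf was lower in both GHCre arrays. Hbegf and the brightest feature of Egfr overlapped between the genotypes. Among the 7 tested genes, both GHCre arrays lay above both controls for 3 (Erbb2, Erbb3 and Tgfa) and below both for 2 (Egf and Erbb4). Over all genes tested, 16.7% lay above both controls in this way and 21.3% below. An unadjusted p under 0.05 was reached by 4 of the 7, with Erbb2, Erbb3 and Tgfa higher and Egf lower, where 6.58% of all genes reached it. Erbb3 and Tgfa entered the test only through the GHCre arrays, so they had to differ, and the counts support nothing for these genes as a group.

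Egfr, the receptor of most of these ligands, gave different pictures on its 3 features. The upstream feature was at 1.48 and 0.11 in the 3 day controls, 0.92 and 0.65 in the 3 day GHCre arrays, then 0.81 (control) and -0.02 (GHCre) after 10 days. The GHCre levels lay between the control levels after 3 days, and the difference was -0.01 ± 0.63 (SE, n = 2 against 2, adjusted p = 0.997 with limma). Its sign turned without replicate 1 of the controls (0.67) or without replicate 2 of the GHCre arrays (0.12). After 10 days the difference was -0.83 ± 0.89 (1 array against 1, adjusted p = 1).

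The variant 2 feature was higher in controls. It was at -3.08 and -2.77 in controls of 3 days, at -4.43 in GHCre replicate 1 and, not above background, at -5.46 in GHCre replicate 2. On both 10 day arrays it was not above background, at -6.25 (control) and -5.65 (GHCre). Both 3 day controls thus lay above the other 4 arrays. The difference after 3 days was -2.02 ± 0.56 (adjusted p = 0.706 with limma, fitted over single features). It was -1.35 within slide 1, which holds replicate 1 of both genotypes, and -2.69 within slide 3, which holds replicate 2. From 3 to 10 days the control signal was at least 2.02-fold lower (log2 difference -3.33 ± 0.69, adjusted p = 1). Here and below, "at least" sets an array with no signal above background to the dimmest level that counted as such on that array. Where the feature's own level was higher, that level was kept. The bound holds for this background subtraction and scaling only. Under another background correction, given below, the 3 day differences of Erbb2, Erbb3, Tgfa and the variant 1 feature fell short of their bounds.

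The variant 1 feature went the other way. It is printed 10 times on each array, and its mean signal was 18.1 and 4.2 units in the 3 day controls, where 4 of 9 and 0 of 10 usable spots were above background, against 263.5 and 87.1 units in the 3 day GHCre arrays, where all 10 spots were. On the log2 scale these are levels of -3.36 and -5.90 against -0.18 and -1.77. After 10 days both genotypes were above background, at -2.97 and -3.03. The GHCre arrays of 3 days were therefore the highest of the 6, and the feature did not separate the genotypes after 10 days. The 3 day difference was 3.65 ± 1.14 (adjusted p = 0.722 with limma, fitted over single features), at least 6.89-fold, with 3.18 within slide 1 and 4.13 within slide 3. The test of a changed GHCre effect between 10 and 3 days gave -3.71 ± 1.97 (adjusted p = 1).

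The 10 spots on an array had an SD from 0.05 to 0.35 (log2) for this feature, which is technical spread within an array. With normexp background correction and an offset of 50, which pulls dim signals together, the 3 day difference was 1.16 for variant 1 and -0.69 for variant 2 under the same scaling. No setting turned the sign of either feature. Without control replicate 2 the variant 1 difference was 2.39, and without GHCre replicate 1 it was 2.86. The variant 1 and variant 2 features differ in annotated transcript, position and base composition, and which of these goes with the opposite values was not tested.

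**Figure D2:**
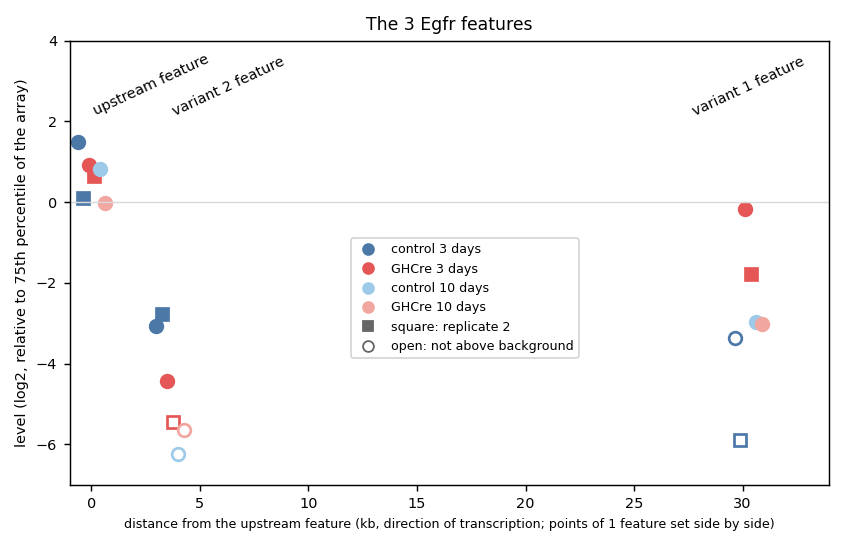
Level of the 3 Egfr features (log2, relative to the 75th percentile of the array) against their distance in kb from the upstream feature, with 1 point for each array and open points not above background. The 3 day controls are the highest arrays at the variant 2 feature, and the 3 day GHCre arrays are the highest at the variant 1 feature, 30259 bases downstream.

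Erbb2, the partner receptor without a ligand of its own, was detected in every group but the 3 day controls. Its 10 spots gave a mean signal of 6.9 and 10.8 units in the 3 day controls, where 0 and 1 of 10 spots were above background. The 3 day GHCre arrays gave 30.6 and 29.4 units, the 10 day control 41.8 and the 10 day GHCre array 60.1, with all usable spots above background. The matching levels were -4.75 and -4.53, then -3.29 and -3.34, then -2.62 and -2.19. Control and GHCre arrays did not overlap after 3 days, and both 10 day arrays lay above all arrays of 3 days.

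The Erbb2 difference after 3 days was 1.33 ± 0.40 (adjusted p = 0.738 with limma), at least 1.48-fold, with 1.46 and 1.19 within the slides. With normexp it shrank to 0.02 under the same scaling and to 0.26 with quantile normalization. After 10 days it was 0.43 ± 0.57 (adjusted p = 1). Within controls, the 10 day array was at least 2.39-fold above the 3 day arrays (2.03 ± 0.49, adjusted p = 1), and within GHCre arrays the difference was 1.13 ± 0.49 (adjusted p = 1). The Erbb2 feature lies on chr11:98298103-98298162.

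Erbb3, the neuregulin receptor with little kinase activity, had signal above background on the 3 day GHCre arrays alone. Its levels there were -3.39 and -3.25 (28.4 and 31.4 units). In the 3 day controls it was at -5.86 and -6.16 (3.2 and 3.5 units), and after 10 days at -4.40 (control) and -4.71 (GHCre), none of them above background. The GHCre replicates were thus close to each other and apart from the remaining 4 arrays, though just above the limit of detection. The 3 day difference was 2.69 ± 0.41 (adjusted p = 0.653 with limma), the lowest p among the tested members. As a fold it was at least 1.47, and it was 2.47 and 2.91 within the slides. With normexp it was 0.14, and 0.43 with quantile normalization as well.

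After 10 days the Erbb3 difference was -0.31 ± 0.58, with both arrays below background. The test of a changed GHCre effect gave -3.00 ± 0.71 (adjusted p = 1), and Erbb3 was the 1 member with an unadjusted p under 0.05 there, where 3.94% of all genes had one. Because Erbb3 was tested only through its 3 day GHCre arrays, a smaller effect after 10 days was fixed by the filter, and nothing is read from this count. Within GHCre arrays Erbb3 was at least 1.93-fold lower after 10 days than after 3 (-1.39 ± 0.50, adjusted p = 1).

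Erbb4, which binds neuregulins as well as Hbegf and Btc, was lower in GHCre arrays on its brighter feature. It was at -1.38 and -3.66 in the 3 day controls, at -3.74 in GHCre replicate 1 and, not above background, at -4.32 in GHCre replicate 2. The genotypes did not overlap, but the lower control and the higher GHCre array were 0.08 apart. The 3 day difference was -1.51 ± 0.92 (adjusted p = 0.861), and it was -2.37 and -0.66 within the slides. It was -0.37 without control replicate 1, -2.65 without control replicate 2 and -0.70 with normexp.

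After 10 days Erbb4 was at -1.68 (80.1 units) in the control, while the GHCre array, at -5.72 (5.2 units), was not above background. This was at least 6.03-fold lower (-4.04 ± 1.30, adjusted p = 1 with limma), the largest difference among the 7 tested genes at that time, from 1 array against 1. The difference was -1.08 with normexp under the same scaling and -2.19 as the mean of all probes. Erbb4 was the 1 member with an unadjusted p under 0.05 after 10 days, where 3.02% of all genes had one. It was also the 1 member over 2-fold lower, where 14% of all genes were, and 0 members were over 2-fold higher, where 12.7% of all genes were. The control of 10 days shares its slide with no other array, and for this comparison the effects of slide and genotype cannot be told apart. A further Erbb4 feature (chr1:68078805-68078864) was above background on control replicate 2 of 3 days alone, at -4.07, and did not carry the 10 day difference, with both arrays below background. Some markers of other cells were lower on the 10 day GHCre array too. The 11 tested hormone cell markers had a median difference of -3.28, with 6 over 2-fold lower and 4 above 0. Their summed signal was 1785.89 (control) and 1866.5 (GHCre) in multiples of the 75th percentile. Prl made up most of both sums, with levels of 10.49 (control) and 10.82 (GHCre), while Gh was at 7.86 and 2.21. The sums therefore do not show how the other hormone markers moved. The 5 folliculostellate markers had a median of -2.00 and sums of 19.79 (control) and 10.78 (GHCre). Median differences were -0.61 for fibroblast and pericyte markers and -1.28 for 2 erythroid markers. They were -0.21 for stem cell, -0.03 for endothelial, 0.11 for macrophage and myeloid, and 0.23 for lymphocyte markers. The part of these cells in the Erbb4 value was not tested.

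**Figure D3:**
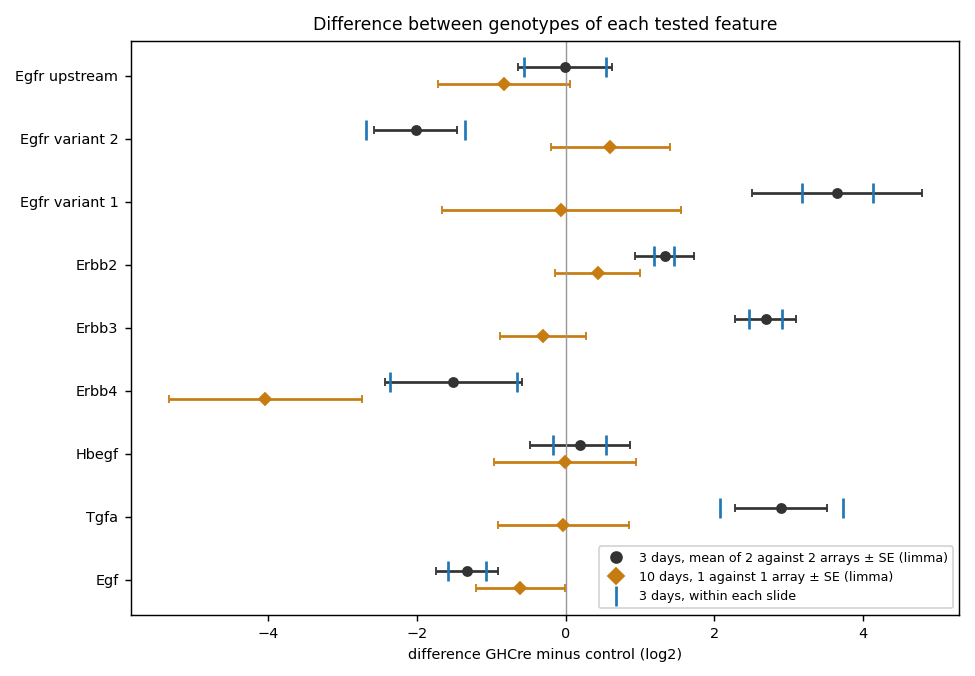
Difference between GHCre and control arrays (log2) of the 9 features tested, after 3 days (circles) and 10 days (diamonds), with standard errors from limma; blue ticks are the 3 day differences within slide 1 and slide 3. Erbb2, Erbb3, Tgfa and the variant 1 feature of Egfr lie to the right of 0 after 3 days with both ticks on the same side, Erbb4 lies at -4.04 after 10 days, and both Erbb3 and Tgfa arrays of 10 days were below background.

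Hbegf, the ligand whose primate form is the toxin receptor, was well above background on all 6 arrays. It was at 3.00 and 1.60 in the 3 day controls (1484.3 and 759.5 units), 2.83 and 2.14 in the 3 day GHCre arrays (2116.8 and 1317.1 units), and 1.57 and 1.55 in the control and GHCre arrays of 10 days (759.1 and 801.8 units). The GHCre levels lay between the control levels after 3 days, and replicate 1 was the higher in each genotype. The difference was 0.19 ± 0.67 (adjusted p = 0.965 with limma), with -0.17 within slide 1 and 0.54 within slide 3. Without control replicate 2 it was -0.51 and without GHCre replicate 1 it was -0.15. After 10 days it was -0.01 ± 0.95 (adjusted p = 1).

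All 3 day levels of Hbegf were at or above those of 10 days. The 10 day level was lower by 0.73 ± 0.83 (log2) in controls and by 0.93 ± 0.83 in GHCre arrays (adjusted p = 1 for both), where the 3 day controls were 1.40 apart. The feature matches the endogenous mouse gene on chromosome 18 from 36664738 to 36664797. Whether it also binds the transcript of the primate receptor made from iDTR cannot be read from these files.

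Tgfa, a ligand of Egfr, was like Erbb3 in being above background on the 3 day GHCre arrays alone. Its 10 spots gave 74.7 and 29.7 units there, against 3.5 and 5.9 in the 3 day controls and 7.8 and 8.1 in the control and GHCre arrays of 10 days. All usable spots were above background on the first 2 arrays and 0 on the other 4. The levels after 3 days were -2.00 and -3.32 (GHCre) and -5.73 and -5.40 (controls), then -5.05 and -5.08 after 10 days. On control replicate 1 a single spot of 60.3 units had been marked as an outlier by the scanner software and was left out.

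The 3 day Tgfa difference was 2.90 ± 0.62 (adjusted p = 0.692 with limma), at least 2.32-fold, with 3.73 and 2.08 within the slides. With normexp it was 0.42, and 0.66 with quantile normalization as well. The test of a changed GHCre effect gave -2.94 ± 1.08 (adjusted p = 1). Within GHCre arrays Tgfa was at least 3.05-fold lower after 10 days than after 3 (-2.42 ± 0.76, adjusted p = 1). The feature lies on chr6:86224838-86224897.

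Egf, the founding ligand, was above background on all 6 arrays and lower on the GHCre arrays than on the control arrays of the same day. Its 10 spots gave 78.5 and 97.9 units in the 3 day controls, 41.7 and 55.3 in the 3 day GHCre arrays, 53.0 in the 10 day control and 36.9 in the 10 day GHCre array. The levels were -1.25 and -1.36, then -2.84 and -2.43, then -2.27 and -2.89. The 3 day controls were the highest of the 6 arrays and did not overlap with the GHCre arrays. The 3 day difference was -1.33 ± 0.42 (adjusted p = 0.74 with limma), a 2.52-fold lower level, with -1.59 and -1.07 within the slides. With normexp it was -0.79, and -0.67 with quantile normalization as well. After 10 days it was -0.61 ± 0.60, and within controls the 10 day array was lower by 0.97 ± 0.52 (adjusted p = 1 for both).

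**Figure D4:**
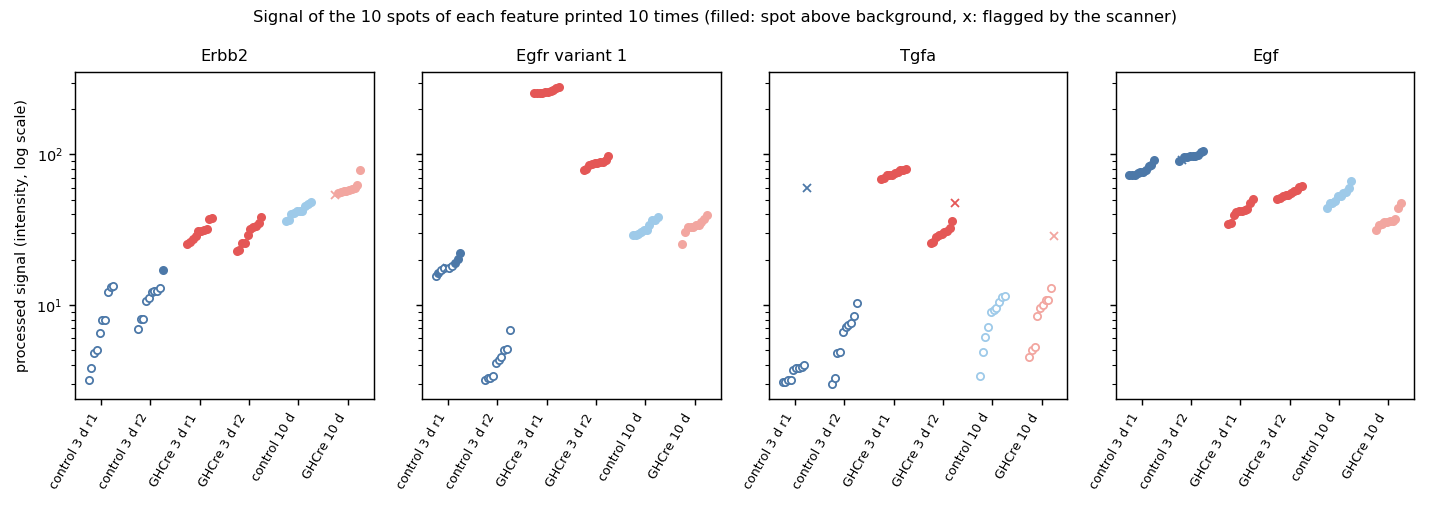
Processed signal (intensity, log scale) of each of the 10 spots of the features printed 10 times, ordered by signal within an array; filled points were above background and crosses were flagged by the scanner software. The 10 spots of an array lie close together where signal is present, and for Tgfa and the variant 1 feature of Egfr the 3 day GHCre arrays lie above every unflagged spot of the other arrays.

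The remaining ligands were at or near background. Areg, which binds Egfr, was above background on GHCre replicate 2 of 3 days alone (43.4 units, level -2.78), and GHCre replicate 1 was the lowest of the 6 arrays at -6.94. Ereg ranged from -6.76 to -5.75 and Btc from -6.96 to -5.46, not above background on any array. Each has a single feature, so these values say no more than that its signal did not clear the background.

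Over time, 2 of the 7 tested members had an unadjusted p under 0.05 within controls, both higher after 10 days (Erbb2, and Erbb3 with all 3 arrays below background), where 4.04% of all genes had one. Within GHCre arrays 2 did, both lower (Erbb3 and Tgfa), where 4.02% of all genes had one. These 2 entered the test only through their 3 day GHCre arrays, so lower values on the other arrays were fixed by that choice and the count supports nothing. Both comparisons rest on 1 array of 10 days and share their 3 day arrays with the comparison of genotypes.

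Hbegf, Egf and the upstream feature of Egfr were above background on all 6 arrays, and the genes with the most similar course over those arrays were looked up among 11778 such genes. For Hbegf they were Rfc2, a replication factor subunit (Pearson r = 0.990), Car13, a carbonic anhydrase (0.987), and Supv3l1, a mitochondrial helicase (0.983). For Egf they were Naa40 (0.994), Gm17511 (0.992) and Loxhd1 (0.983). For Egfr they were Fxyd1 (0.984), Gucy1a2 (0.983) and Ercc5 (0.983). With 6 points and that many genes to choose from, high values arise readily, so these are descriptions with no test, and the arrays share slides and scaling.

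Other genes of the pathway were read from lists of known roles, and up to 4 of each list are named by their unadjusted p after 3 days. The lists were chosen with earlier results of these data known, so their counts are descriptions and no independent support. Over all 20920 genes the median difference after 3 days was -0.037 and 48% of genes were higher in GHCre arrays. Both GHCre arrays lay above both controls for 16.7% of all genes and below both for 21.3%, and 6.58% had an unadjusted p under 0.05. Of 14 genes that shed and traffic EGF ligands, 13 were tested, 11 were higher in GHCre arrays and the median was 0.99. Both GHCre arrays exceeded both controls for 7 of the 13 (16.7% of all genes) and lay below for 1 (21.3% of all genes). The median of the tested genes was -0.05 after 10 days. The slides and the other settings were read without Nrd1, a gene of this list, which gave a main median of 1.00. On that basis the median was 1.23 and 0.87 within the slides and ran from 0.82 to 1.08 over the other settings. An unadjusted p under 0.05 was reached by 2 members, both higher (6.58% of all genes in either direction), and 0 of 13 passed an adjusted p.

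Adam17, the main protease that frees Tgfa, Areg and Hbegf, was at -1.95 and -4.02 in 3 day controls against -0.07 and -0.80 in GHCre arrays, then at -2.24 (control) and -2.29 (GHCre) after 10 days. The 3 day GHCre arrays were the highest of the 6, with a difference of 2.55 ± 0.87 (adjusted p = 0.755 with limma) that was 1.52 without control replicate 2 and 1.28 with normexp. Its other feature gave 1.93. Rhbdf2 and Rhbdf1 encode iRhoms, which carry Adam17 to the cell surface. Rhbdf2 was at -5.58 (not above background) and -3.36 against -1.32 and -0.27 (3.68 ± 0.95, adjusted p = 0.702; 1.25 with normexp). Rhbdf1 was at -0.77 and -0.88 against 1.40 and 0.15 (1.60 ± 0.59, adjusted p = 0.759; 0.97 without GHCre replicate 1). Timp3, an inhibitor of Adam17, was also higher in GHCre arrays, at 3.45 on both controls against 4.55 and 4.36 (1.00 ± 0.40, adjusted p = 0.778).

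The list of inhibitors and feedback genes of ERBB signalling had 17 of 26 genes higher and a median of 0.51 after 3 days. Of these 26, 8 lay above both controls (16.7% of all genes) and 2 below (21.3%), and the median was 0.05 after 10 days. Dusp6, a phosphatase that switches off ERK, was at 2.79 and 2.53 in controls against 4.34 and 3.94 (1.48 ± 0.43, adjusted p = 0.722), and at 3.15 and 3.18 after 10 days. Spry2, a brake on receptor kinases, was at -0.81 on both controls against 1.19 and 0.25 (1.53 ± 0.51, adjusted p = 0.755). Dusp4, a related phosphatase, was above background on the 3 day GHCre arrays and the 10 day control (2.01 ± 0.49 after 3 days, adjusted p = 0.692), and its difference was -0.01 with normexp. Nf1, which restrains RAS, differed by 1.17 ± 0.48 (adjusted p = 0.786). The list median was 0.13 without GHCre replicate 1, 0.79 without GHCre replicate 2, 0.32 and 0.33 without either control, and 0.06 with normexp. An unadjusted p under 0.05 was reached by 3 members, all higher (6.58% of all genes), and 0 of 26 passed an adjusted p.

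Transcripts that ERBB and ERK signalling induces had 22 of 25 genes higher, a median of 0.43, 14 above both controls (16.7% of all genes) and 1 below (21.3%). After 10 days 18 of the 25 were higher, with a median of 0.24. Egr3, an immediate early transcription factor, was at -1.79 and -2.05 in controls against 0.76 and 0.57 in GHCre arrays, and at -0.94 and -1.90 after 10 days. Ier2 was at -0.47 and 0.09 against 1.83 and 1.87. Ptgs2, the inducible cyclooxygenase, was at 0.61 and 1.13 against 2.69 and 2.13 (1.55 ± 0.48, adjusted p = 0.739), and Egr2 at 3.38 and 3.28 against 5.06 and 4.48 (1.44 ± 0.45, adjusted p = 0.739). The 3 day arrays of the genotypes did not overlap for any of these 4 genes. Many genes of this list also respond to cell dissociation, which all samples went through, and its part in these values was not tested. The median ran from 0.36 to 0.56 over the other settings, and 6 members, all higher, had an unadjusted p under 0.05 (6.58% of all genes), with 0 of 25 past an adjusted p.

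Adaptors and transducers of ERBB receptors had 20 of 32 genes higher and a median of 0.39 after 3 days, with 11 above both controls (16.7% of all genes) and 6 below (21.3%), and a median of 0.20 after 10 days. Without control replicate 2 the 3 day median was 0.19. Src, a kinase that acts with Egfr, was at -4.50 (not above background) and -3.49 in controls against -1.38 and 0.74 (3.67 ± 0.92, adjusted p = 0.697; 1.71 with normexp). Eps15, an endocytic adaptor, differed by 3.61 ± 0.89 and the RAS activator Sos1 by 2.99 ± 0.68, each with at least 1 control below background and with 1.10 and 0.38 under normexp. After 10 days these genes lay the other way, at -2.90 for Eps15 and -3.55 for Sos1, both below background in the GHCre array. Eps8 was at -2.68 and -3.50 against -1.17 and -1.23 (1.89 ± 0.49, adjusted p = 0.702), with -2.43 after 10 days. An unadjusted p under 0.05 was reached by 5 members, all higher (6.58% of all genes), and 0 of 32 passed an adjusted p.

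The other ligands of the family were sparse. Of 5, Epgn and Nrg3 were above background on no array. Nrg1, a ligand of Erbb3 and Erbb4, was at -4.18 (not above background) and -3.37 in the 3 day controls, -4.67 (not above background) and -3.17 in the GHCre arrays, and -0.22 and -0.31 after 10 days. Both 10 day arrays were thus above all 3 day arrays, in either genotype. Nrg2 differed by -1.08 ± 0.70 after 3 days (adjusted p = 0.862), by -1.87 without control replicate 1 and by -0.29 without control replicate 2.

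Genes for the entry and action of diphtheria toxin had 7 of 15 higher and a median of -0.11, near that of all genes, with a sign that turned under other scalings. In this list 2 genes lay above both controls (16.7% of all genes) and 4 below (21.3%), 1 had an unadjusted p under 0.05 (6.58% of all genes), and 0 passed an adjusted p. Dph2, which builds the diphthamide that the toxin attacks, was above background on control replicate 2 of 3 days and the 10 day GHCre array alone, at -1.45 and -1.37. Its 3 day difference was -3.27 ± 1.10 (adjusted p = 0.755; -1.92 without control replicate 2, -1.09 with normexp). Dph1 differed by -1.47 ± 0.62 on its brightest feature (-0.79 without control replicate 2) and by 0.07 on the other. Furin, the protease that nicks the toxin, differed by 0.99 ± 0.47 (adjusted p = 0.822) and Dph6 by -0.67 ± 0.40.

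**Figure D5:**
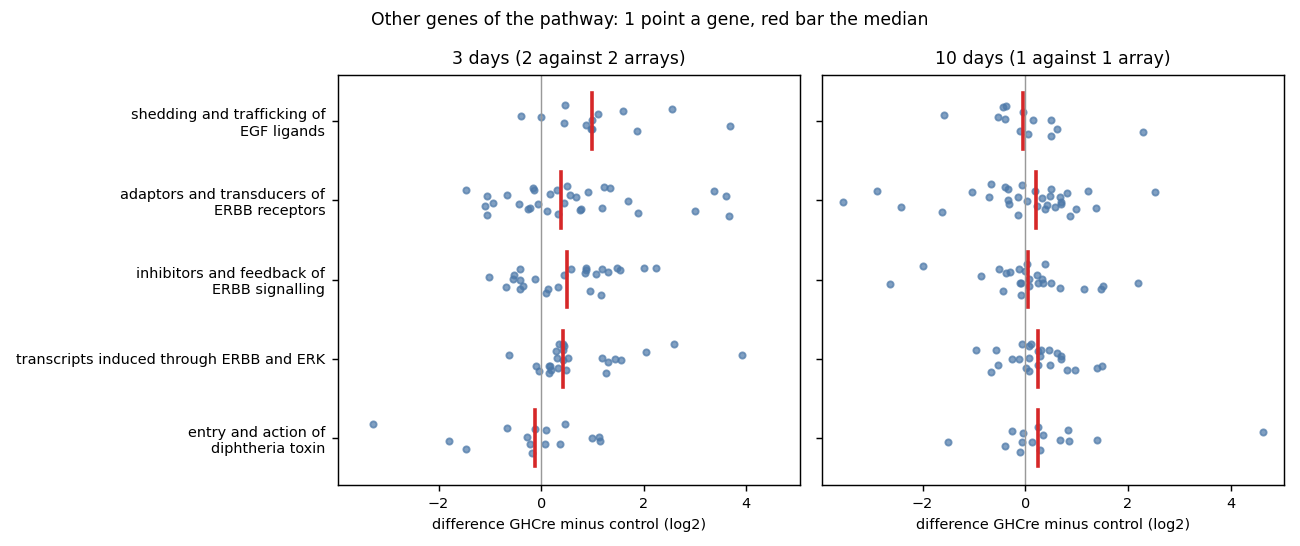
Difference between GHCre and control arrays (log2) of each tested gene of 5 pathway lists, after 3 days (left) and 10 days (right); 1 point is a gene and the red bar is the list's median. After 3 days the medians run from -0.11 for toxin entry to 0.99 for shedding and trafficking, and after 10 days from -0.05 to 0.25.

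Markers of other cells also differed in level between the 3 day arrays, and 0 of those tested in each list passed an adjusted p. Of 10 fibroblast and pericyte markers, 10 were higher in GHCre arrays (median 0.72). Their summed signal, in multiples of the array's 75th percentile, was 206.75 and 137.34 in controls against 268.27 and 218.58 in GHCre arrays, and 172.13 and 167.19 after 10 days. Lymphocyte markers summed to 14.79 and 22.06 against 31.49 and 30.44, with Ms4a1 above background on no array, and had 4 of 6 higher. Folliculostellate markers had 3 of 5 higher and sums of 23.43 and 11.67 against 23.67 and 17.49, and stem cell markers had 8 of 10 higher and sums of 44.69 and 43.05 against 59.61 and 45.75. Endothelial markers had 6 of 7 higher and sums of 5.33 and 4.52 against 7.93 and 5.87. Macrophage and myeloid markers had 4 of 8 higher and lower sums in GHCre arrays, 232.14 and 194.92 against 160.38 and 164.64, with Aif1 and C1qa above background on no array. Hormone cell markers had 3 of 11 higher and sums of 2299.45 and 2197.53 against 1625.65 and 1348.26. Most of each sum was Prl, at 11.08 and 11.06 in controls against 10.59 and 10.35 in GHCre arrays. The part of any of these cells in the differences of the ERBB genes was not tested.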

How the data were processed

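Per the file headers, each 1-colour array was quantified with Agilent Feature Extraction 10.7.3.1. The processed signal that the authors deposited is a background-subtracted intensity, not scaled between arrays, and the authors' series table holds log2 values. Sample titles match the genotype and treatment labels and set the groups, although some descriptions disagree. Unflagged spots of each probe were averaged as log2 values, and each array was scaled by its 75th percentile. A probe was above background where most of its unflagged spots were well above background. No column was left unmatched and 0 spots were saturated. Each gene was represented by its brightest probe and tested where that was above background on at least 2 arrays. The test was limma 3.58.1 (R 4.3.3) with 4 group means over the 6 arrays (Benjamini-Hochberg, threshold 0.05; 2 residual and 2.025 prior degrees of freedom). All residual spread comes from the 3 day arrays, so tests of 10 days assume that lone arrays vary alike. Precision is limited by the number of arrays. The code of the fit was checked on simulated data with a smaller spread than the prior SD of 0.555 found here. That check does not show what the fit can detect on these arrays. Alternatives were other scalings and background corrections, filters, blocks and left-out arrays; those for the Egfr variants and the pathway lists were added after seeing the data. All array features of the 10 genes are named, with up to 4 genes of lowest unadjusted p per list and the 3 most similar genes per fully detected member. The members and lists were chosen with earlier results of these data known. Promoters and protein sequences were not used here. Figures used matplotlib 3.10.9.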

Additional observations from a re-analysis of the deposited data

How the results depend on the processing

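Under each alternative run, 0 members passed an adjusted p of 0.05 with limma, in all 5 comparisons or, with the slide as a block, in that of genotypes after 3 days. Signs held throughout for Erbb2, Erbb4 and Egf, and after 3 days for Erbb3, Tgfa and Egfr variants 1 and 2. The Egfr difference of 3 days (-0.01) was 0.02 with quantile normalization, 0.04 and 0.01 with normexp and either scaling, 0.54 as the mean of all probes and between -0.70 and 0.67 with 1 array left out. That of Hbegf (0.19) lay between -0.51 and 0.89 with 1 array left out. After 10 days Erbb3 (-0.31) was 0.01 and Tgfa (-0.03) 0.02 with normexp and quantile normalization, and Tgfa was 0.09 in the series table, with both arrays below background. The toxin entry median (-0.11) was 0.06 with quantile normalization, 0 and 0.05 with normexp, and 0.03 in the series table. The cause was not tested. Normexp with the 75th percentile moved the median of all genes to -0.153, and 37.2% of genes were then higher. The replicate numbers were shared by the genotypes, but deviations of same-numbered 3 day arrays correlated at 0.087 over genes, with 2 pairs. With the replicate block, which after 3 days is also the slide block, adjusted p was 0.692 for Erbb2, Erbb3, Tgfa and Egf. Low signal limits Erbb2, Erbb3 and Tgfa, whose 3 day controls lay below background.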
